A study of Mus musculus with 12 samples.

Results

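The squamous lineage transcription factors considered here were 10 listed genes. Trp63 and Sox2 were the basal factors, Klf4, Grhl1, Grhl3 and Ovol1 the differentiation factors, and Pitx1, Klf5, Tfap2a and Ehf the other members. The list gives them by name, with no threshold on a measured value, but was drawn up with earlier results of these data known. All 10 were found among the 32498 named genes of the 12 deposited tables. All 10 also passed the filter on low values (a mean of at least 0.1 FPKM) that left 16852 genes to test.

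The lining of the tongue is a stratified squamous epithelium. Its basal layer holds the dividing progenitor cells, which express keratin 14 (Krt14) and depend on p63, the product of Trp63. Daughter cells that leave that layer stop dividing, switch to other keratins such as keratin 13 (Krt13), the suprabasal keratin of oral mucosa, and build a barrier under factors such as KLF4 and the grainyhead-like proteins. Squamous carcinomas of the head and neck commonly keep p63 and SOX2 and lose part of the differentiation program, so the set reads out both sides of this switch.

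Tongue tissue, labelled as tumor and tumor-associated cells, came from C57BL/6 mice given gallic acid (GA) or vehicle. Each group had 6 samples, with 1 RNA-seq library for each sample. Mice of both groups had drunk 4-nitroquinoline 1-oxide (4NQO), a DNA-damaging carcinogen, at 100 µg/mL for 16 weeks. Either GA, a plant phenolic acid, at 100 mg/kg or vehicle (methyl cellulose with Tween-20) was gavaged 5 times per week from week 4 until sacrifice. The mice were 5 weeks old at purchase, no carcinogen-free tongue was compared here, and the labels number the libraries without naming animals, so p-values measure the spread between these libraries. Total reads per library recovered from the FPKM values (fragments scaled to transcript length and library size) were 18040152 to 25192491. All 10 factors, both keratins and 19 of 19 basal layer genes were above 0 in every library, and the tissue also held muscle, with 12 skeletal muscle genes summing to 1343 to 11508 scaled FPKM. The 3 libraries vehicle 3, vehicle 5 and GA 2 also held salivary gland transcripts (Lipf, a lipase of the lingual glands, at 8079 to 26220 scaled FPKM against at most 0.498 in the other 9). Reads of Y-linked genes were present in 4 vehicle libraries and 1 GA library. In bulk tissue, fewer cells of a type and less RNA per cell cannot be told apart.

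The promoters of the differentiation factors are shown because these genes moved together across libraries, and that of Krt13 because it was the keratin they followed. RefSeq promoter sequences (GRCm38.p6) were given for 5 of the 10 factors, and 3 of them, Klf4, Grhl1 and Grhl3, started within 50 bases of the annotated 5′ end of the gene. The 250 bases before each start are printed 5′ to 3′ on the gene's strand. Capitals mark every match, on either strand, to 1 of 7 motifs of the families to which the members other than Trp63 belong. These were KLF (CACCC), GRHL (AACNNGTT), AP-2 (GCCNNNGGC), ETS (AGGAAG), SOX (AACAAT), PITX (TAATCC) and OVOL (CCGTTA). No motif for p63 was searched, so p63 sites are not marked. No match of one motif overlapped a match of another.
Klf4, chr4:55532476-55532725, minus strand: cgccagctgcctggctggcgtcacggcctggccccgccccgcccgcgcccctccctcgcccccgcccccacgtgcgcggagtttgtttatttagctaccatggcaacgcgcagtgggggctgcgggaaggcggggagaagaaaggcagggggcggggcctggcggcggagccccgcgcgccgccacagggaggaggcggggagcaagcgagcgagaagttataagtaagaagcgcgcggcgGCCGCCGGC
Grhl1, chr12:24572037-24572286, plus strand: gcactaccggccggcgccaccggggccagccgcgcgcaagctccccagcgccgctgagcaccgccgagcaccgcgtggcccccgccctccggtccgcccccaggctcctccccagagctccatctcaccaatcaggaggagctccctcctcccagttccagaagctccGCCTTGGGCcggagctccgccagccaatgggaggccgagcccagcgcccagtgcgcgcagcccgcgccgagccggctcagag
Grhl3, chr4:135573633-135573882, minus strand: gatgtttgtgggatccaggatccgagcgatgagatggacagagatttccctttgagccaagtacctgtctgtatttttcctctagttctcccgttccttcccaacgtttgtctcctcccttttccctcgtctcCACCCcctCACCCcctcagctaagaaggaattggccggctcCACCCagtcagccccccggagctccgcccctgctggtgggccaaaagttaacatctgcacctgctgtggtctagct
Krt13, chr11:100121567-100121816, minus strand: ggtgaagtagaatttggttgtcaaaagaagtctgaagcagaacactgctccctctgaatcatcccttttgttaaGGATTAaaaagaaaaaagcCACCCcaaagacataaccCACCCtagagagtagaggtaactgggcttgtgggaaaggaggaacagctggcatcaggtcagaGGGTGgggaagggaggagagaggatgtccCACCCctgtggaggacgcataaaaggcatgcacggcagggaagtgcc

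The Klf4 and Grhl1 promoters each held 1 AP-2 match, at 9 to 1 and at 82 to 74 bases before the start. An AP-2 match was present in 13.7% of the 32851 RefSeq promoters of the same length. The Grhl3 promoter held 3 KLF matches and the Krt13 promoter 4, with a PITX match besides in the latter. A KLF match was present in 52.0% of all promoters, 3 or more in 6.92% and 4 or more in 2.14%, and a PITX match in 6.25%. None of the 4 promoters held the GRHL motif (3.64% of all promoters), the ETS motif (29.5%), the SOX motif (9.42%) or the OVOL motif (2.18%). These matches describe the letters in this window only.

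The factors were expressed over more than a 10-fold range of levels. Scaled FPKM, which is per transcript length, averaged 249 ± 81.0 for Klf4 (SD, n = 12 libraries) and 122 ± 22.6 for Pitx1, and both led in all 12 libraries. Grhl3 followed at 68.3 ± 22.9. Ehf (45.8 ± 10.4), Klf5 (45.5 ± 8.64), Trp63 (40.4 ± 8.98), Ovol1 (37.2 ± 11.7) and Grhl1 (33.6 ± 11.3) formed a group of similar level, in which Ehf was above Klf5 in 6 libraries and Klf5 above Trp63 in 10. Sox2 (20.7 ± 4.68) and Tfap2a (17.0 ± 3.58) were lowest. For every pair of neighbours in this order the ranges over the 12 libraries overlapped. The 4 differentiation factors also varied most, with coefficients of variation of 31.4% to 33.7% against 18.5% to 22.6% for the other 6. Sox2 had the fewest reads, 517 in the shallowest case, where counting error alone is 4.40%, so counting was a small part of the spread.

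**Figure D1:**
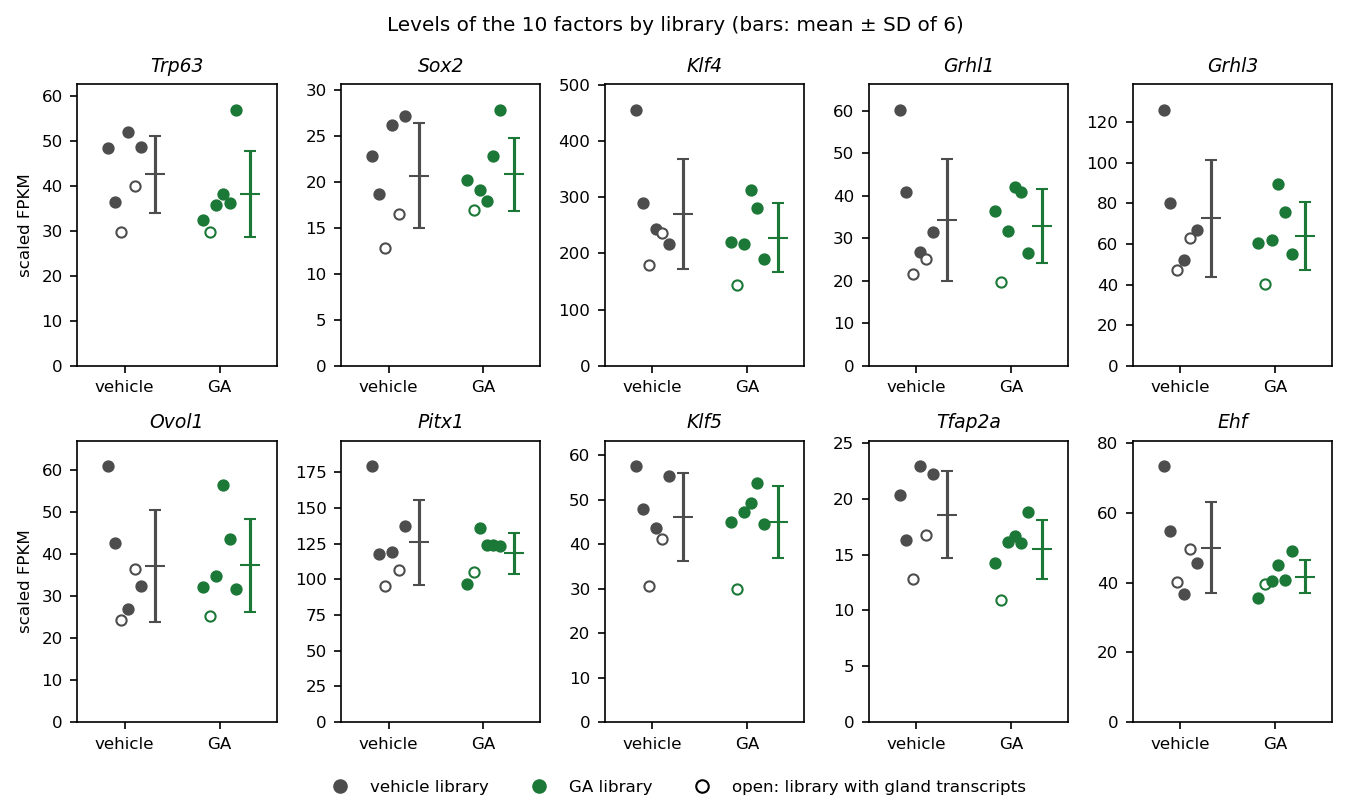
Scaled FPKM (y axis, linear, from 0) of each of the 10 factors in the 6 vehicle and 6 GA libraries. Points are libraries, open points the 3 with gland transcripts, and bars the mean ± SD. In every panel the vehicle and GA points overlap. Vehicle 1, the first point on the left, is highest of all for Klf4, Grhl1, Grhl3, Ovol1, Pitx1, Klf5 and Ehf.

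GA was compared with vehicle to ask whether treatment shifted the basal or the differentiation factors. No factor passed the test, and the groups overlapped for each of them. By limma on log2(scaled FPKM + 0.1), 0 of the 10 factors and 0 of 16852 genes (percent called, 0) reached an adjusted p below 0.1 with an absolute log2 difference of at least 0.58. The limit of 0.05 on the unadjusted p was passed by 364 genes (2.16%) and none of the 10 factors, and limma-voom on recovered reads also called 0 genes. The adjusted p was 1.00 for each factor.

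Among the basal factors, Trp63 (chr16:25683763-25892102, plus strand), which specifies and maintains stratified epithelial progenitors, ran from 29.8 through a median of 44.3 to 52.0 scaled FPKM in vehicle and from 29.8 through 35.9 to 56.9 in GA. All GA libraries but 1 lay below the median of vehicle, while GA 6 was the highest of all 12. The log2 difference was -0.16 (95% interval -0.54 to 0.21, exact two-sided permutation p = 0.387). Sox2 (chr3:34650405-34652461, plus strand), a progenitor factor of foregut and tongue epithelium, ran from 12.8 (median 20.7) to 27.2 in vehicle and from 16.9 (median 19.7) to 27.8 in GA. Its groups covered nearly the same span, with a difference of 0.04 (-0.37 to 0.45, exact permutation p = 0.853).

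Of the differentiation factors, Klf4 (chr4:55527143-55532466, minus strand), a zinc finger protein needed for barrier formation, ran from 180 (median 240) to 456 in vehicle and from 143 (median 219) to 314 in GA. Vehicle 1 stood well above the other libraries and GA 2 lowest, and the difference was -0.23 (-0.74 to 0.29, exact permutation p = 0.403). Grhl1 (chr12:24572283-24617391, plus strand), which controls desmosomal cadherins, ran from 21.6 (median 29.0) to 60.1 in vehicle and from 19.6 (median 34.0) to 42.1 in GA. Its difference was -0.02 (-0.57 to 0.53, exact permutation p = 0.946). Here 4 of the GA values exceeded the median of vehicle although the group means were alike. Grhl3 (chr4:135541888-135573630, minus strand), required for the epidermal barrier and for epithelial closure, ran from 47.3 (median 65.0) to 126 in vehicle and from 40.4 (median 61.3) to 89.4 in GA. The difference was -0.15 (-0.67 to 0.38, exact permutation p = 0.591). Ovol1 (chr19:5549136-5560646, minus strand), a zinc finger repressor that restrains progenitor growth, ran from 24.2 (median 34.3) to 60.9 in vehicle and from 25.3 (median 33.5) to 56.3 in GA. Its difference was 0.03 (-0.49 to 0.54, exact permutation p = 0.933), and 3 GA values lay on each side of the median of vehicle. Genes on the opposite strand overlap 22.0% of the Ovol1 exons, and the sources do not say whether counting used strand, so a part of its reads could belong to them.

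The other 4 factors had differences between -0.25 and -0.03. Tfap2a (chr13:40715302-40738376, minus strand), the AP-2α factor of surface ectoderm, ran from 12.8 (median 18.6) to 22.9 in vehicle and from 10.95 (median 16.1) to 18.8 in GA, a difference of -0.25 (-0.61 to 0.10, exact permutation p = 0.173). Opposite-strand genes overlap 14.6% of its exons. Ehf (chr2:103263433-103303278, minus strand), an epithelial ETS factor, ran from 36.6 (median 47.6) to 73.3 in vehicle and from 35.5 (median 40.6) to 48.9 in GA, a difference of -0.23 (-0.57 to 0.10, exact permutation p = 0.167). For both, GA values were lower than the median of vehicle in 5 of 6 libraries, and the ranges still overlapped. Klf5 (chr14:99298691-99315036, plus strand), which promotes growth of basal epithelial cells, had medians of 45.9 and 46.1 scaled FPKM in vehicle and GA and a difference of -0.03 (-0.40 to 0.34, exact permutation p = 0.861). Pitx1 (chr13:55825051-55836192, minus strand), a homeodomain factor of oral ectoderm, had medians of 118 and 124, and its difference was -0.07 (-0.40 to 0.26, exact permutation p = 0.688). Over the 10 factors the median log2 difference was -0.11, with 2 higher and 8 lower, against 0.00 over all genes, of which 8584 were higher and 8268 lower. The intervals of Klf4, Grhl3 and Tfap2a reached below -0.58, so that decreases past the limit used for calls lay within them, and those of the other 7 lay within 0.58 of 0 on both sides.

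**Figure D2:**
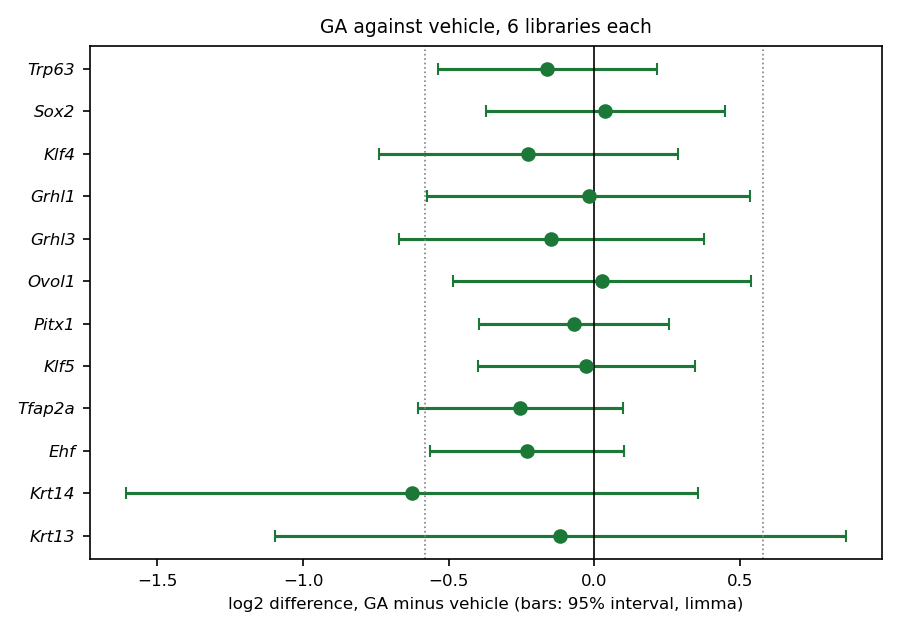
Log2 difference of GA minus vehicle (x axis) for the 10 factors, Krt14 and Krt13, with 95% intervals from limma over 12 libraries. Dotted lines mark an absolute difference of 0.58; every interval includes 0, and those of the keratins are the widest.

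The keratins against which the factors were read did not pass the test either. Krt14 (chr11:100203162-100207548, minus strand) ran from 2525 (median 3980) to 6827 scaled FPKM in vehicle and from 1220 (median 2646) to 8022 in GA, a log2 difference of -0.63 (-1.61 to 0.36, exact permutation p = 0.195). Krt13 (chr11:100117327-100121566, minus strand) ran from 7051 (median 9065) to 22196 in vehicle and from 5579 (median 11179) to 13111 in GA, a difference of -0.12 (-1.10 to 0.86, exact permutation p = 0.732). The log2 ratio of Krt13 to Krt14 averaged 1.40 ± 0.97 in vehicle and 1.91 ± 1.33 in GA (SD, n = 6 each), a difference of 0.51 (exact permutation p = 0.452) that lay between 0.23 (without GA 5) and 0.90 (without GA 6) with single libraries left out. The smallest p that 6 against 6 libraries allow is 0.00216.

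The balance of basal against differentiation factors was taken in each library as the mean log2 level of Trp63 and Sox2 minus that of Klf4, Grhl1, Grhl3 and Ovol1. It ran from -1.85 through a median of -1.23 to -0.57 in vehicle and from -1.78 through -1.27 to -0.45 in GA. The ranges of the groups overlapped over most of their length, and the mean of GA was 0.03 above that of vehicle. Vehicle 1 and GA 4 had the lowest balance, that is the most differentiation factor transcript for their basal factor level, and GA 6 and vehicle 4 the highest. The log2 ratio of Krt13 to Krt14 was 2.70 and 2.23 in the first pair and -0.04 and 0.57 in the second. Between these ends the balance and the ratio did not follow the same order. The highest ratios, 3.30 in GA 5 and 3.18 in GA 1, stood at places 4 and 5 from the lowest balance. Vehicle 5, with a ratio of 0.12, stood at place 7 and vehicle 6, with 1.77, at place 10.

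**Figure D3:**
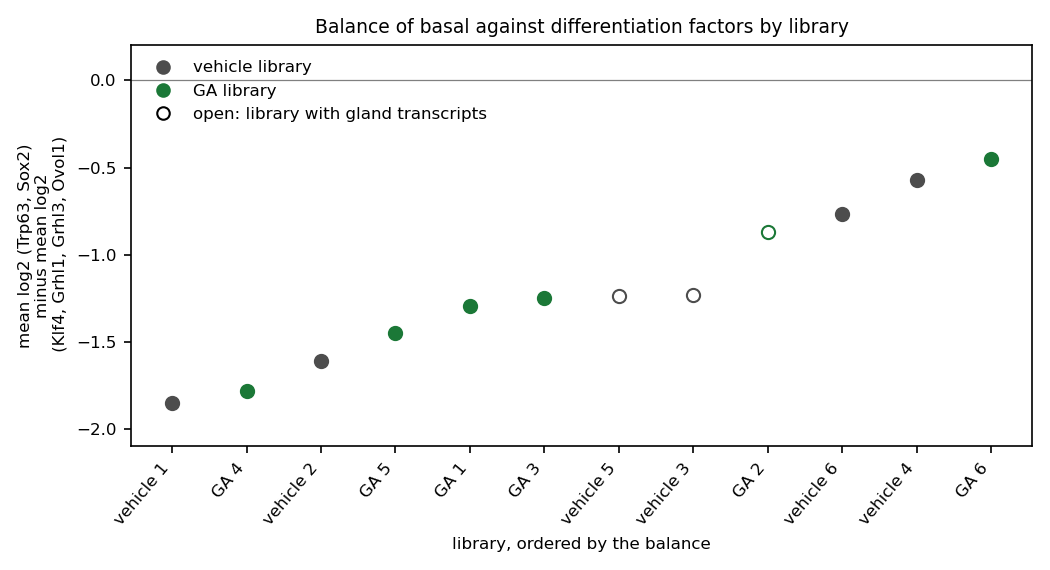
Mean log2 scaled FPKM of Trp63 and Sox2 minus that of Klf4, Grhl1, Grhl3 and Ovol1 (y axis) in each of the 12 libraries, ordered from lowest to highest. Vehicle and GA libraries are mixed along the order, with both groups near each end, from -1.85 in vehicle 1 to -0.45 in GA 6, and the 3 libraries with gland transcripts (open) stand at places 7 to 9.

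Across the 12 libraries the differentiation factors rose with Krt13, while no slope of a basal factor was called. The difference between these sets of slopes was not tested. A slope was fitted for every gene on the log2 level of each keratin, and gives the change in the gene's log2 level for each unit of log2 keratin. With Krt13, 6 of the 10 factors had a positive slope at an adjusted p below 0.1, where 6.05% of 16851 genes did, 4.56% had a negative one and 10.6% were called in all (Krt13 itself left out). All 10 slopes were positive, with a median of 0.40 against -0.02 over all genes. Those called were Grhl1 (0.73, SE 0.11, limma adjusted p = 0.00674), Grhl3 (0.68, SE 0.12, adjusted p = 0.00960), Klf5 (0.45, SE 0.09, adjusted p = 0.0170), Klf4 (0.60, SE 0.15, adjusted p = 0.0372), Ovol1 (0.57, SE 0.14, adjusted p = 0.0394) and Pitx1 (0.34, SE 0.10, adjusted p = 0.0646). Ehf (0.29), Tfap2a (0.26), Sox2 (0.22) and Trp63 (0.15) had limma adjusted p of 0.220 to 0.638. The calls rested on few libraries. Without the 3 libraries with gland transcripts 12 genes in all and none of the factors were called, although Grhl1, Grhl3 and Klf4 kept slopes of 0.62, 0.67 and 0.52. Without vehicle 1, the library with the most Krt13, 133 genes were called and Klf5 and Grhl1 were the only factors among them. Without GA 2, the library with the least Krt13, 945 genes and 3 factors, Klf5, Grhl1 and Grhl3, were called, and the Pitx1 call was also lost without vehicle 3 or vehicle 5.

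Pearson and Spearman correlations, 20 relations in all between a factor and a keratin, were taken beside the slopes. Klf5 gave r = 0.86 with Krt13 (permutation p = 0.000160, n = 12) and rho = 0.96 (p = 1e-05, the smallest that 100000 resamples can give), and among the 9 libraries without gland transcripts its r was 0.92. The order of the libraries by Klf5 was thus nearly their order by Krt13. Grhl1 gave r = 0.90 (permutation p = 0.000150) and rho = 0.79 (p = 0.00336), and Grhl3 gave r = 0.88 (permutation p = 0.000190) and rho = 0.83 (p = 0.00184). Without the 2 libraries farthest from the median of Krt13, vehicle 1 and GA 2, the r of Klf5, Grhl1 and Grhl3 was 0.80, 0.76 and 0.69. For Klf4, r = 0.78 (permutation p = 0.00244) but rho = 0.55 (p = 0.0721), and r fell to 0.42 (permutation p = 0.222) without those 2 libraries, so its relation rested on them. Ovol1 gave r = 0.77 (permutation p = 0.00364) and rho = 0.77 (p = 0.00495), and Pitx1 r = 0.76 (permutation p = 0.00345) and rho = 0.79 (p = 0.00304). Without the same 2 libraries the r of Ovol1 and Pitx1 was 0.55 (permutation p = 0.0996) and 0.54 (permutation p = 0.111). These 3 relations, of Klf4, Ovol1 and Pitx1, were no longer distinguishable from 0 in the remaining 10 libraries. Within the 6 vehicle and the 6 GA libraries taken separately, r was 0.87 and 0.96 for Grhl1 and 0.87 and 0.89 for Grhl3. It was 0.83 and 0.93 for Klf5, 0.73 and 0.91 for Klf4, 0.78 and 0.78 for Ovol1 and 0.92 and 0.36 for Pitx1. The exact pairings p was above 0.05 for Klf4 in vehicle (0.0806), for Ovol1 in vehicle and GA (0.0681 and 0.0639) and for Pitx1 in GA (0.499). A test of the difference between the slopes of the groups called none of the factors (limma adjusted p = 0.994 for each).

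With Krt14 alone, no factor was called, where 6.54% of genes were called with a positive and 6.19% with a negative slope, 12.7% in all. Trp63 came nearest (slope 0.23, SE 0.09, limma adjusted p = 0.135). In all 12 libraries it was called without scaling (0.27, limma adjusted p = 0.0938), with a muscle term (0.17, limma adjusted p = 0.0843) and with a gland term (0.32, limma adjusted p = 0.00597), and the gland term also gave a call for Tfap2a (0.23, limma adjusted p = 0.0430). It gave r = 0.62 (permutation p = 0.0328, n = 12) and rho = 0.66 (p = 0.0213), and r = 0.62 (permutation p = 0.0584) without GA 1 and GA 5, the libraries farthest from the Krt14 median. In the 9 libraries without gland transcripts r was 0.91 (permutation p = 0.000270), and Trp63, as it was without vehicle 3 alone, was called there (slope 0.30, limma adjusted p = 0.0236) together with Tfap2a (0.21, limma adjusted p = 0.0860). The 3 libraries with gland transcripts all lay low in Trp63 for their Krt14 level. No relation of Sox2 with Krt14 was detectable in the 12 libraries (r = 0.20, permutation p = 0.540; rho = 0.24, p = 0.443). Among the 9 without gland transcripts the r of Sox2 was 0.65 (permutation p = 0.0627). Tfap2a in the 12 libraries gave r = 0.39 (permutation p = 0.204) and rho = 0.62 (p = 0.0342). The slopes of the 4 differentiation factors on Krt14 lay between -0.25 and -0.11, and none was called.

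Because Krt13 and Krt14 were themselves only weakly related (r = -0.34, permutation p = 0.280, n = 12; rho = -0.29, p = 0.354), both were also fitted together. At a given level of the other keratin, Trp63 (slope 0.31, SE 0.08, limma adjusted p = 0.0291) and Tfap2a (0.24, SE 0.08, limma adjusted p = 0.0827) were called with Krt14, where 9.34% of genes were called positive, 11.4% negative and 20.8% in all. With Krt13, 8 factors were called, Grhl1, Grhl3, Klf5, Pitx1, Klf4, Ovol1, Ehf and Tfap2a, where 8.52% of genes were called positive, 8.11% negative and 16.6% in all. Trp63 (0.30, limma adjusted p = 0.110) and Sox2 (0.29, limma adjusted p = 0.262) were the 2 not called. Tfap2a was thus the only factor called for both keratins, and its call with Krt14 was lost when any of 9 single libraries was left out. Among single libraries, the Trp63 call was lost only without GA 6, the library with the most Krt14, and without vehicle 1 no factor was called with Krt13 in this fit, although Grhl1, Grhl3 and Klf5 kept slopes of 0.59, 0.59 and 0.62 (limma adjusted p of 0.111 to 0.262) against 0.69, 0.70 and 0.48 in all 12 libraries. With skeletal muscle transcript as a further term in this fit no factor was called for either keratin. Vehicle 1 had the lowest mean log2 level of the 11 muscle genes that passed the filter (5.22) and the highest of the 4 differentiation factors (6.91). Vehicle 3 and GA 2 had the highest muscle (8.59 and 8.20) and the lowest differentiation factors (5.52 and 5.37). GA 6 and vehicle 4 went the other way, with low muscle (5.88 and 6.24) and low differentiation factors (5.77 and 5.78). The part of muscle content in the joint slopes was not tested beyond that fit. In the fit on Krt13 alone with the muscle term, Klf5, Grhl1 and Grhl3 were still called (limma adjusted p of 0.0254 to 0.0508).

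**Figure D4:**
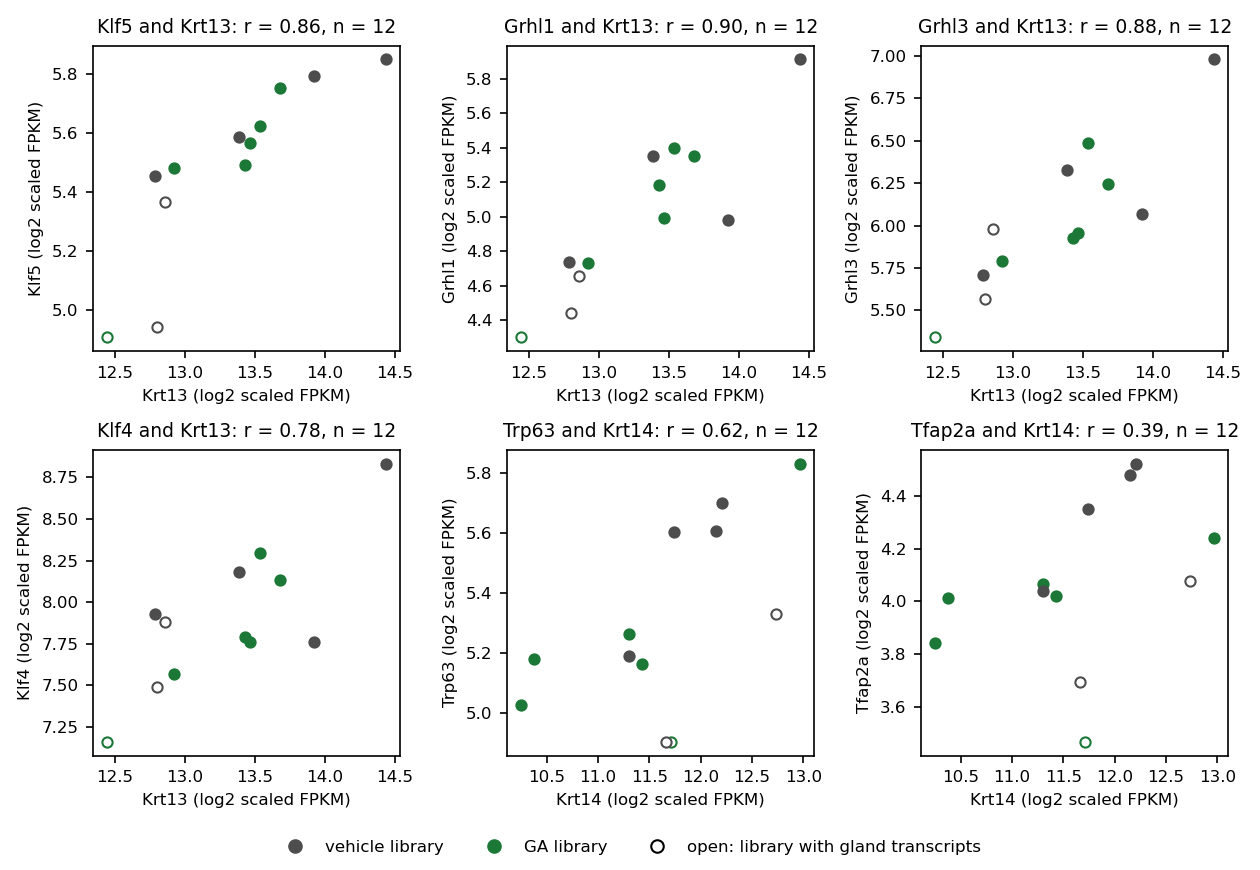
Log2 scaled FPKM of 6 factors (y axes) against that of Krt13 or Krt14 (x axes) in the 12 libraries; open points are the 3 libraries with gland transcripts. Klf5, Grhl1 and Grhl3 rise with Krt13 over its whole range, the Klf4 relation is drawn out by the library at each end, and in the Trp63 panel the open points lie below the filled points of like Krt14 level.

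The factors fell into sets by their correlation with each other, although Klf5 and Pitx1 correlated with members of more than 1 set. Among the 45 pairs, the 6 pairs of differentiation factors had Pearson r of 0.90 to 0.96 and rho of 0.85 to 0.97 (n = 12, unadjusted permutation p for r of 1e-05, the smallest possible, to 8e-05). Their r stayed at 0.87 to 0.96 without the libraries with gland transcripts and at 0.85 to 0.94 without vehicle 1, and was 0.93 to 0.98 within vehicle and 0.86 to 1.00 within GA. Among all 16851 other genes, Grhl3 stood at place 1 by its correlation with Ovol1 and at place 2 by that with Klf4. From the side of Grhl3, Klf4, Ovol1 and Grhl1 stood at places 7, 10 and 12. The other places were lower. From the side of Grhl1, Grhl3, Klf4 and Ovol1 stood at places 24, 105 and 162. From the side of Klf4, Grhl1 and Ovol1 stood at places 29 and 94, and from that of Ovol1, Grhl1 and Klf4 at 26 and 32. The 4 genes lie on 3 chromosomes, and each spanned 2.52-fold to 3.19-fold between its lowest and its highest library.

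Another set was Trp63, Sox2 and Tfap2a. Trp63 and Tfap2a gave r = 0.90 (permutation p = 8e-05, n = 12) and rho = 0.95 (p = 2e-05), Trp63 and Sox2 r = 0.82 (permutation p = 0.00100) and rho = 0.69 (p = 0.0170), and Sox2 and Tfap2a r = 0.77 (permutation p = 0.00388) and rho = 0.62 (p = 0.0376). Without the libraries with gland transcripts the r of these 3 pairs were 0.87, 0.83 and 0.74. By correlation with Trp63, Tfap2a and Sox2 stood at places 106 and 499 among all 16851 other genes. With Sox2, Trp63 and Tfap2a stood at places 57 and 210, and with Tfap2a, Trp63 and Sox2 at places 19 and 499. Genes outside this set were thus nearer to each of the 3 than its fellow members were. The 8 pairs of a basal with a differentiation factor had r of only 0.15 to 0.34, and no permutation p was below 0.276. In the 9 libraries without gland transcripts these r were negative, from -0.51 to -0.07, and again none was distinguishable from 0. Neither a positive nor a negative relation between the basal and the differentiation factors was detectable in these libraries. Ehf had r of 0.58 to 0.74 with the differentiation factors and of 0.14 to 0.41 with Trp63, Sox2 and Tfap2a. Pitx1 had r of 0.66 to 0.73 with the former and of 0.55 to 0.64 with the latter. Without vehicle 1 the r with the differentiation factors fell to 0.20 to 0.47 for Ehf and 0.37 to 0.48 for Pitx1. Those of Pitx1 with Trp63, Sox2 and Tfap2a were then 0.58 to 0.66. The r of Ehf with the differentiation factors was 0.87 to 0.98 within vehicle and -0.05 to 0.31 within GA. That of Pitx1 was 0.78 to 0.88 within vehicle and 0.25 to 0.47 within GA. These differences in r between the groups were not tested. The vehicle values include vehicle 1 and were not taken without it. Klf5 had r of 0.74 to 0.84 with the differentiation factors, highest with Grhl1 (permutation p = 0.000340; rho = 0.86, p = 0.000700), and 0.74 with Pitx1. Its r was 0.73 with Tfap2a, 0.56 with Trp63 and 0.66 with Sox2 (permutation p = 0.0188 for Sox2; rho = 0.50, p = 0.105). Without the libraries with gland transcripts these last 3 were 0.22, 0.04 and 0.06, and those with the differentiation factors 0.62 to 0.76. These correlations share library composition, and muscle content was not separated out of them.

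**Figure D5:**
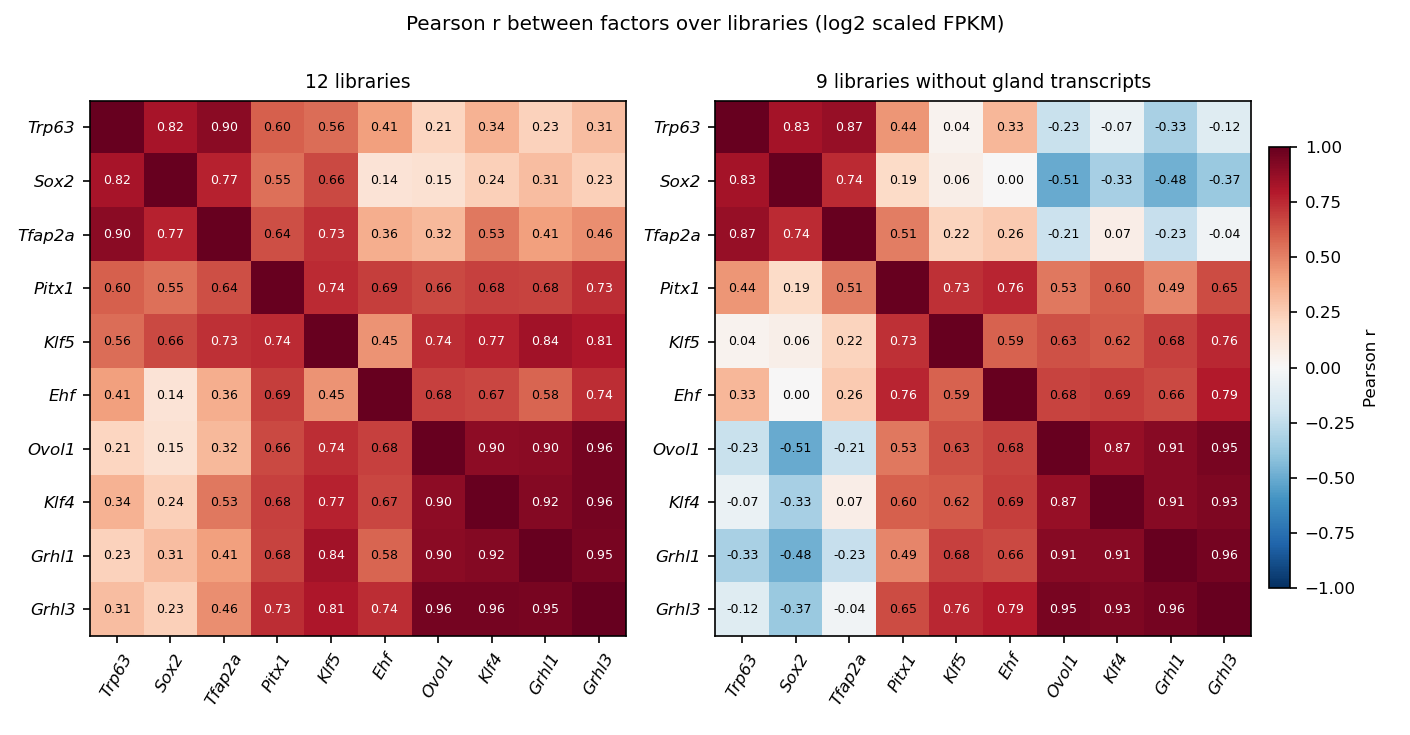
Pearson r between each pair of the 10 factors over the 12 libraries (left) and over the 9 without gland transcripts (right), in log2 scaled FPKM, colored from -1 (blue) to 1 (red). The 4 differentiation factors form a block of 0.90 to 0.96 at the lower right and Trp63, Sox2 and Tfap2a a block of 0.77 to 0.90 at the upper left; the r between the 2 blocks are weak on the left and mostly negative on the right.

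The genes most like each factor were named from the 12165 genes that averaged 1 FPKM or more, as a description of the highest of many values. Usp7, a deubiquitinase, was among the 3 nearest of both Grhl1 (r = 0.98, n = 12) and Grhl3 (r = 0.98), and Ppm1d, a p53-induced phosphatase, among those of Grhl1 (r = 0.98) and Ovol1 (r = 0.93). Grhl1 was nearest to Hebp2 (r = 0.98), a heme-binding protein. Grhl3 was also near Scnn1a, the alpha subunit of the epithelial sodium channel (r = 0.97). Ovol1 was nearest to Klk9, a kallikrein-related peptidase, and Lmbrd2 (both r = 0.94), and Klf4 to Usp6nl, Fbrs and Yod1 (all r = 0.96). For the basal factors, Trp63 was nearest to Mta3, a chromatin remodeling subunit (r = 0.97), Aqr, a spliceosomal helicase, and Atl3 (both r = 0.96), and Sox2 to Dhx35, Gm4524 (both r = 0.91) and Grhl2 (r = 0.90), the grainyhead-like gene outside the listed members. Tfap2a was nearest to Matn2 (r = 0.95), Tspan9 (r = 0.94) and Sf3b1 (r = 0.93). Klf5 was nearest to Copg2 (r = 0.96), Gja1, which encodes connexin 43, and Gng12 (both r = 0.95). Pitx1 was near Btf3 (r = 0.95) and Rps26, which encodes a ribosomal protein (r = 0.94), and Ehf was nearest to Pla2g4d, a phospholipase, 4732496C06Rik (both r = 0.94) and Cpeb4 (r = 0.92).

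A wider list of 48 squamous and epithelial transcription factors, of which 47 were tested, gave 16 higher and 31 lower in GA. The median log2 difference was -0.11, and none was called. Over all 16852 genes 8584 were higher and 8268 lower, with a median of 0.00, and none was called either. Elf5, an epithelial ETS factor, had a log2 difference of 0.48 (SE 0.22, limma p = 0.0493, adjusted p = 1.00, exact permutation p = 0.0606), higher than the median of vehicle in 5 of 6 libraries. Also named by rule were Dlx5 (-0.45, exact permutation p = 0.0974) and Tfap2e (0.32, exact permutation p = 0.271), both with an adjusted p of 1.00. Among the most abundant, Hopx (slope 0.73, limma adjusted p = 0.00588) and Barx2 (0.68, limma adjusted p = 0.0482) were called with Krt13, while Cebpb was called with neither keratin. In all, 13 of the 47 (27.7%) were called positive and 4 (8.51%) negative with Krt13, where 6.05% and 4.56% of all genes were. With Krt14, 9 (19.1%) were called positive and 4 (8.51%) negative, where 6.54% and 6.19% of all genes were.

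The structural genes of the layers gave the keratin fits a reference. With Krt14, 10 of 19 basal layer genes were called positive and 2 negative, Krt15 (-1.05) and Dlk2 (-0.50), where 6.54% and 6.19% of all genes were. Of 26 suprabasal genes tested, 1 was called positive with Krt14, Krt6a (0.59), and 2 negative, Krt76 (-1.90) and Crnn (-1.69). With Krt13, 15 of the suprabasal and 1 of the basal layer genes, Igfbp2 (0.46), were called positive and none negative, where 6.05% and 4.56% of all genes were. These 6 genes were named after their values were seen. Evpl (0.73, limma adjusted p = 0.00934) and Sprr3 (0.96, limma adjusted p = 0.0235), genes of the cornified envelope, were called with Krt13. Between GA and vehicle no gene of either list was called. Over all genes 8584 were higher and 8268 lower, with a median of 0.00. The basal layer list had 5 genes higher and 14 lower (median -0.14), with 1 at an unadjusted limma p below 0.05, Ccnd2, a G1 cyclin (0.29, limma p = 0.0368, adjusted p = 1.00, exact permutation p = 0.0281), higher than the median of vehicle in 6 of 6 libraries. Also named by rule were Dst (0.25) and Perp (-0.30). The suprabasal list had 5 genes higher and 21 lower (median -0.16), with none at that limit. Those with the smallest p in each direction were Sprr3 (0.19), Evpl (0.08), Sprr1b (-0.46) and Klk8 (-0.34).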

How the data were processed

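RNA-seq was done on tongue tissue of vehicle and GA mice, with 6 libraries for each group. The authors deposited FPKM values, 1 table for each library. Per the labels and the study's methods, these came from a HISAT2 alignment to mm10, with featureCounts used on uniquely mapped reads. Of 55463 rows, 22965 without a gene name (41.4%, holding 16.2% to 25.5% of the FPKM sum) were left out, and 29222 of the 32498 named rows matched a unique GENCODE M21 symbol (GRCm38), from which positions and exon lengths were taken. Reads were recovered from FPKM and exon length, and of values equal to 8 or fewer reads, 97.6% to 98.3% were whole to within 0.02.

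FPKM was divided by a trimmed mean factor (0.914 to 1.08), which gives the scaled FPKM, and tested as log2(scaled FPKM + 0.1) with limma 3.58.1 (lmFit, eBayes with trend, R 4.3.3) over the 16852 genes that averaged 0.1 FPKM or more. Fold changes on this scale are slightly understated for low genes. p-values were Benjamini-Hochberg adjusted over all genes tested. A call in the comparison of groups needed an adjusted p below 0.1 and an absolute log2 difference of at least 0.58, and a call on a keratin slope an adjusted p below 0.1. The study's edgeR test was not run, and the recovered reads were tested with limma-voom as an alternative. Exact two-sided permutation tests of group differences and permutation tests of correlations (100000 resamples, exact pairings within a group) were run in Python 3.11.15 with scipy 1.17.1. The scripts were tested on simulated data.

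Libraries were grouped by their labels. The members and all gene lists were chosen with earlier results of these data known, so no p was adjusted over a list and no list was tested as a set. Genes named beside the members were the 3 most correlated with each member (mean at least 1 FPKM), the 2 smallest p in each direction of 3 lists, and the 4 most abundant of the wider factors. Some genes that this rule names are not reported here. Lor is named Loricrin in the tables. Alternatives covered the pseudocount, filter, scaling, replicate block, covariates for Y-linked reads, gland, muscle and epithelial transcript, limma-voom and robust fits, and leaving out libraries. A neutrophil term, the 7 libraries without Y-linked reads and slopes by group were added after the data were seen.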

Additional observations from a re-analysis of the deposited data

Results flagged for a closer look

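In the GA group, library 6 stood apart from the other 5 for Trp63, at 56.9 scaled FPKM, where its gap to the next library was 0.686 of the group's range. The same library stood apart for Krt14, at 8022 scaled FPKM, with a gap of 0.688 of the range, against a limit of 0.625 for 6 libraries. These were 2 of 28 groups of values examined (7.14%), and chance alone singles out about 1 in 20. The gaps were taken on scaled FPKM, and on the log2 scale of the tests both lay below the limit of 0.625. Without GA 6 the log2 difference of GA minus vehicle was -0.28 for Trp63 and -0.95 for Krt14, and neither was called. The cause was not tested.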

How the results depend on the processing

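No factor was called between GA and vehicle under the alternatives run, and the count of all genes called was 0 in 27 of 31. It was 1 without vehicle 4 (leaving out single libraries gave 0 to 1) and 2 among the 7 libraries that lack Y-linked reads, and an unadjusted p below 0.05 or below 0.1 together with the fold limit would call 179 or 328 genes. The exact permutation p passed 0.05 for Tfap2a without vehicle 3 (-0.35, p = 0.0368), for Ehf without vehicle 4 (-0.31, p = 0.0498) and for Krt14 without GA 6 (-0.95, p = 0.0238). Of the other permutation results for the factors and keratins under the alternatives, 168 stayed as they were and 21 changed sign. Small differences changed sign. With a term for Y-linked reads, Grhl1 was at 0.11 and Sox2 at -0.0049. With the muscle term Grhl1 was at 0.0071. With the gland term Ovol1 was at -0.050 and Sox2 at -0.061, and without the libraries with gland transcripts they were at -0.00079 and -0.14. With the neutrophil term they were at -0.11 and -0.0033, while Grhl1, Pitx1 and Sox2 were at 0.14, 0.014 and -0.040 among libraries lacking Y-linked reads. Leaving out single libraries gave -0.13 to 0.16 for Grhl1, -0.25 to 0.028 for Grhl3, -0.14 to 0.084 for Klf5, -0.10 to 0.18 for Ovol1, -0.14 to 0.039 for Pitx1, -0.091 to 0.13 for Sox2 and -0.23 to 0.098 for Krt13. Differences that kept their sign also moved, Klf4 to -0.062 and Ehf to -0.11 without vehicle 1 and Krt14 to -1.10 with the term for Y-linked reads.

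The numbers of genes called on keratin slopes depended on the setting more than the slopes of the factors did. With Krt14, 2145 genes were called, against 4326 with the gland term, 3357 with the muscle term, 1002 with the neutrophil term, 1351 in libraries lacking Y-linked reads and 308 (without GA 6) to 3356 (without vehicle 1) with single libraries left out. With Krt13, 1788 genes were called, against 1136 without scaling, 238 with the gland term, 12 without the libraries with gland transcripts, 181 with the neutrophil term, 2 in the libraries without Y-linked reads and 133 (without vehicle 1) to 2367 with single libraries left out. The gland and the neutrophil term each left Grhl1 and Grhl3 called. In the joint fit the Krt14 slope called 3501 genes, against 1027 with the muscle term, 0 in libraries lacking Y-linked reads and 1249 (without GA 6) to 4066 with single libraries left out. Its Krt13 slope called 2802, against 666 with the gland term, 45 with the muscle term, 82 without the libraries with gland transcripts, 1023 with the neutrophil term, 0 in libraries lacking Y-linked reads and 29 (without vehicle 1) to 4530 with single libraries left out. Settings that drop libraries also leave fewer samples, and otherwise the cause was not tested. Slopes that changed sign were small. On Krt14, Grhl3 was at 0.030 with the neutrophil term and Sox2 at -0.011 to 0.16 without single libraries (r from -0.027 to 0.36). On Krt13, Ehf was at -0.012 in the libraries without Y-linked reads, Trp63 at -0.041, -0.098 and -0.088 with the gland term, with the muscle term and without the libraries with gland transcripts, and Sox2 at -0.099 and -0.081 with the gland term and without those libraries (-0.031 with the gland term in the joint fit). The permutation p of the correlation of Trp63 with Krt14 was above 0.05 without vehicle 4, vehicle 6, GA 1 or GA 6 (0.0527 to 0.140).

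Libraries of both groups carry the numbers 1 to 6, but nothing in the labels pairs them. To look for pairing, the mean of its group was subtracted from each gene's log2 level. These deviations, over all genes tested, correlated at -0.372 to 0.0799 between same-numbered libraries. By that measure 0 of 6 numbers had their best match in their own number. With the replicate block, 0 genes were called for GA, and the difference of 0.51 in the Krt13 to Krt14 ratio, which a block of complete pairs cannot change, had a paired exact permutation p of 0.531, while 296 genes were called with Krt14 (Sox2 slope -0.055), 328 with Krt13, among them Grhl1 and Grhl3, and in the joint fit 1302 with Krt14, with no factor, and 588 with Krt13, among them Klf4, Grhl1 and Grhl3.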
